A study of Mus musculus with 9 samples.

Results

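Cultured mouse myoblasts that overexpressed the transcription factor Pax3 were compared with myoblasts carrying an empty vector, by hybridisation of total RNA to Affymetrix mouse gene arrays. The comparison took the 3 arrays titled Pax3 overexpression and the 3 titled CTAP Control, which are 6 of the 9 arrays of the series. The other 3 arrays, of myoblasts overexpressing Pax7, entered the estimate of the spread and served as a second overexpression group. All groups were skeletal muscle myoblasts of Balb/c background and were kept in the same culture medium, Ham's F10 to which 20% FBS and bFGF (4 ng/ml), a growth factor that keeps myoblasts dividing, had been added. The labels give no other allele or agent, and they do not say whether the control and Pax cells came from the same animal, so these groups may come from different animals. Nor do they say whether the 3 samples of a group were separate cultures. The p-values therefore reflect only the scatter among these samples, which may be technical.

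Pax3 is a paired-box transcription factor that binds DNA through a paired domain and a homeodomain. In the embryo it acts in muscle precursors of the somite, from which cells migrate into the limb, and in the neural crest. Its relative Pax7 is the marker of the satellite cells from which adult muscle regenerates, and both factors act upstream of the myogenic regulators Myf5 and Myod1.

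Values are log2 intensities per probe set, a scale on which a difference of 1 unit is a doubling. Each of 19661 genes was represented by the probe set with exactly 1 gene symbol and the highest mean over the 9 arrays. A gene passed the threshold where the limma p-value, adjusted over all genes by the Benjamini-Hochberg method, was under 0.05, and "difference" means the Pax3 mean minus the control mean with its standard error. Array medians lay between 6.40 and 6.48, and the number of arrays limits the precision. Between Pax3 and control arrays 39.6% of all genes passed (7780), 19.8% higher (3902) and 19.7% lower (3878). Most of these differences were small: 5042 were under 0.5 log2 units, and 944 reached 1 log2 unit, 451 higher and 493 lower. Over all genes the median difference was 0.0157 log2 units. All 3 Pax3 arrays lay above all 3 control arrays for 4482 of the 19661 genes and below them for 4377. Groups without overlap were therefore common. With the lowest 50% of genes left out 6528 passed, so dim genes passed less often than bright ones. The 39.6% over all genes is therefore below the share among brighter genes, and no list was compared with genes of like level. Sex-linked transcripts divided the same groups: Xist stood at 4.62 to 4.85 on control arrays and at 11.90 to 12.04 on Pax3 arrays, and the Y-linked Eif2s3y, Uty and Kdm5d differed by -5.66, -5.42 and -4.07. On Pax3 arrays these Y-linked genes read 3.10 to 4.42, so the size of a difference from a level in that range is not exact. Pax7 arrays read alike, with Xist at 11.70 to 11.76 and these Y-linked genes at 3.07 to 4.31. The part of a difference between the cells in any result below was not tested, also where Pax3 and Pax7 arrays differ alike from control.

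The overexpressed gene itself was read first. Pax3 stood at 5.91, 5.78 and 5.80 on the control arrays and at 11.10, 11.01 and 11.04 on the Pax3 arrays. All 3 Pax3 arrays lay far above all control arrays, a 37.2-fold higher intensity (difference 5.22 ± 0.0489, adjusted p = 2e-13). On Pax7 arrays its level was 6.80, 6.87 and 6.80, which left Pax3 arrays 4.23 ± 0.0489 higher (adjusted p = 7.08e-12). The probe sets do not tell transcripts of the cells' own gene from those of the introduced construct.

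Myf5, the myogenic factor that acts first in muscle commitment, was higher in the Pax3 arrays. It stood at 9.33, 9.37 and 9.49 in control and at 11.42, 11.34 and 11.34 in Pax3 arrays, a 3.92-fold difference without overlap (1.97 ± 0.0556, adjusted p = 4.52e-10). Its Pax7 values of 11.45, 11.34 and 11.46 overlapped those of Pax3 (Pax3 minus Pax7 -0.05 ± 0.0556, adjusted p = 0.662). Myod1, named after its values were seen, was 12.60, 12.64 and 12.60 in control and 12.43, 12.53 and 12.54 in Pax3 arrays and did not pass (-0.12 ± 0.0434, adjusted p = 0.053). Pax7 was 10.47, 10.45 and 10.60 in control and 8.15, 8.26 and 8.14 in Pax3 arrays, 5.02-fold lower (-2.33 ± 0.0528, adjusted p = 9.86e-11).

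Hoxd8, a homeobox gene that marks position along the body axis, stood at 4.72, 4.43 and 4.26 in control and 8.12, 8.33 and 7.93 in Pax3 arrays. The difference was 3.66 ± 0.115 (adjusted p = 1.09e-09), and Pax3 arrays also lay above the Pax7 arrays, at 7.35, 7.35 and 7.39 (by 0.76, adjusted p = 0.000844). Grb10, an imprinted adaptor that restrains insulin and growth factor receptors, was 5.54, 5.58 and 5.34 in control and 8.93, 8.96 and 8.72 in Pax3 arrays. It rose 10.4-fold (3.38 ± 0.074, adjusted p = 7.44e-11) and was 0.93 above the Pax7 arrays, which all read 7.94 (adjusted p = 8.13e-06). The transcription factor Sim2 was 5.16, 5.40 and 5.45 in control and 9.49, 9.56 and 9.41 in Pax3 arrays (17.7-fold, 4.15 ± 0.0717, adjusted p = 1.49e-11). It lies in a stretch of chromosome 16 described further on, where most measured genes were higher. In none of these genes did a Pax3 array overlap a control array.

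**Figure D1:**
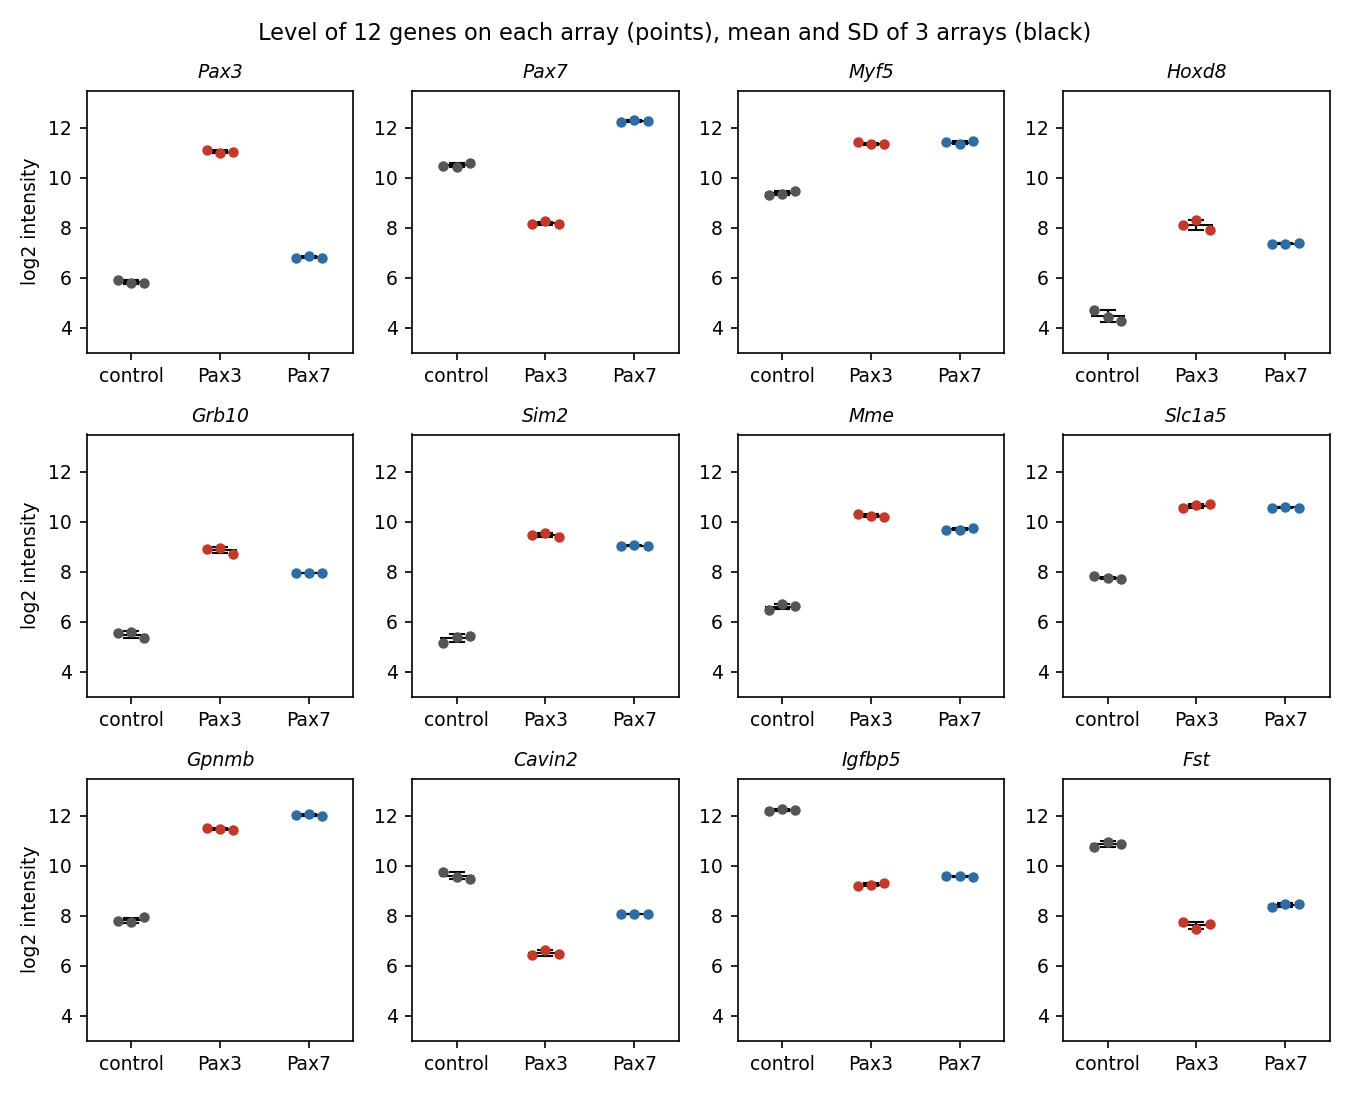
Log2 intensity of 12 genes on each control, Pax3 and Pax7 array (points), with the mean and SD of 3 arrays in black. Pax3 stands near 11 on Pax3 arrays only, Myf5 overlaps between both overexpression groups, and Cavin2 is lowest in Pax3 arrays, between 6.44 and 6.64.

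Sequence before the start site was examined for the genes that moved most. RefSeq windows for the GRCm38.p6 build covered 15353 of the genes tested, and the 250 bases before each start were searched on both strands. GTCACGC, a core of the sequences that Pax paired domains bind, was present for 2.89% of these genes, for 11 of the 335 genes that were at least 1 log2 unit higher (3.28%) and for 7 of the 376 that were at least 1 log2 unit lower (1.86%). The paired homeodomain motif TAATNNATTA was present for 0.313% of all genes and for 0.299% and 0.266% of these groups, and TAATNNNATTA for 0.462%, 0.299% and 0.532%. TCACGTG, the core of the motif shared by many lysosomal genes and bound by Tfeb, Tfe3 and Mitf, was present for 4.46% of all genes. It was present for 3.88% of those at least 1 log2 unit higher and for 7.18% of those at least 1 log2 unit lower. Of 45 lysosomal genes with a window 12 held it (26.7%). A match says only that these letters are in the window. The windows shown are those of the 3 genes with GTCACGC that rose most and of the 2 lysosomal genes with TCACGTG that rose most. Capitals mark GTCACGC or TCACGTG on either strand, and each is written 5′ to 3′ in the direction of its gene. Kif1a, a neuronal motor protein, is at chr1:93101875-93102124 (minus strand), Nabp1, a single-stranded DNA binding protein, at chr1:51478400-51478649 (minus strand), and Arhgdib at chr6:136939528-136939777 (minus strand). Naglu, which degrades heparan sulfate, is at chr11:101069844-101070093 (plus strand), and Gla, alpha-galactosidase A, at chrX:134601006-134601255 (minus strand).
Kif1a: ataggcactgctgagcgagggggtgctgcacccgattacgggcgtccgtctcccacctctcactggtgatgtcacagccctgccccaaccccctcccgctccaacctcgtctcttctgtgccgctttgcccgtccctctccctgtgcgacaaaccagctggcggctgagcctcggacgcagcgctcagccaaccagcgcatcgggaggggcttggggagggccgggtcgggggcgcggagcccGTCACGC
Nabp1: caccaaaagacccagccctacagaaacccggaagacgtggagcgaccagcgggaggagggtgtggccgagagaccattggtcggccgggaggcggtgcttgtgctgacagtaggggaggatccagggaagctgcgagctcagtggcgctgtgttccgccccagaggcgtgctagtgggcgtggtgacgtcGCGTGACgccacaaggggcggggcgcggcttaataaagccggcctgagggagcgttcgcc
Arhgdib: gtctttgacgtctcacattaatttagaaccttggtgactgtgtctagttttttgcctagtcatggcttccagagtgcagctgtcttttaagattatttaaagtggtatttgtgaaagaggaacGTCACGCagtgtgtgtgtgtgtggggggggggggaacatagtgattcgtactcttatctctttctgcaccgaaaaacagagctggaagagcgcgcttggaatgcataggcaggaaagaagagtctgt
Naglu: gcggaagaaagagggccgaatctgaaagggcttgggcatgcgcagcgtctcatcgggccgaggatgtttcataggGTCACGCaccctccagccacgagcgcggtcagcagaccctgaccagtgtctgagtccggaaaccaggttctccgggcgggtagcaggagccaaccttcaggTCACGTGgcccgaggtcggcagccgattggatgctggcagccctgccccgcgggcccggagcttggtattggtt
Gla: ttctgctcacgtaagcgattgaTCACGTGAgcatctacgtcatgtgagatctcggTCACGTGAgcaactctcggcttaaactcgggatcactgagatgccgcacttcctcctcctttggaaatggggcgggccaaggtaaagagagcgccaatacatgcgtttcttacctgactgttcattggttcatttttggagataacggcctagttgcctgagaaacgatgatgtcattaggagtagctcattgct
The match in Kif1a is the last 7 bases before the start, that of Nabp1 begins 60 bases and that of Arhgdib 127 bases before it. Naglu holds both motifs, and Gla holds TCACGTG in 2 places whose matches on the 2 strands overlap. Kif1a stood at 5.90, 5.93 and 6.0 in control and at 8.81, 8.87 and 8.74 in Pax3 arrays (2.87 ± 0.0471, adjusted p = 1.24e-11). Nabp1 was 7.0, 7.0 and 6.80 in control and 9.40, 9.54 and 9.31 in Pax3 arrays (2.48 ± 0.0726, adjusted p = 6.12e-10). Arhgdib was 8.06, 8.10 and 7.93 in control and 9.67, 9.56 and 9.57 in Pax3 arrays (1.57 ± 0.0572, adjusted p = 3.22e-09). In all 3 genes the groups did not overlap.

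A run of neighbouring genes on chromosome 16 differed together between Pax3 and control arrays. Chromosome 16 had 645 genes, of which 17.1% were higher and 37.5% lower, while on the other 19 chromosomes 15.1% to 25.8% were lower. Among genes above the median level, taken in their order along the chromosome, the running median of 21 genes reached from -1.24 to 0.75 log2 units on chromosome 16 and from -0.32 to 0.42 on the other 19. The first 14 genes, Zfp263 to Dnaja3, had a median of -0.05. From Nmral1 to Filip1l followed 231 genes, of which 197 were lower, 13 higher and 21 did not pass, with a median of -0.63. The 3 Pax3 arrays had medians of -0.62, -0.56 and -0.69 over these genes against the control mean. From Crybg3 to the end of the measured genes, 77 genes had a median of 0.59, with 69 higher, 3 lower and 5 not past, and Pax3 array medians of 0.62, 0.65 and 0.53. The Pax7 arrays, set against the same control arrays, had medians of -0.63 and 0.64 over the lower and the higher stretch. The stretches were outlined after the values were seen, with limits of 0.2 log2 units on the running median, so their counts describe them and are not tests. A window of 21 genes blurs their ends. Nmral1 (-0.12) and Hmox2 (-0.04), which open the lower stretch, did not pass, and Ubald1, shortly after, differed by -1.40. The array values do not show whether DNA dosage differed between the cells, which was not measured.

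**Figure D2:**
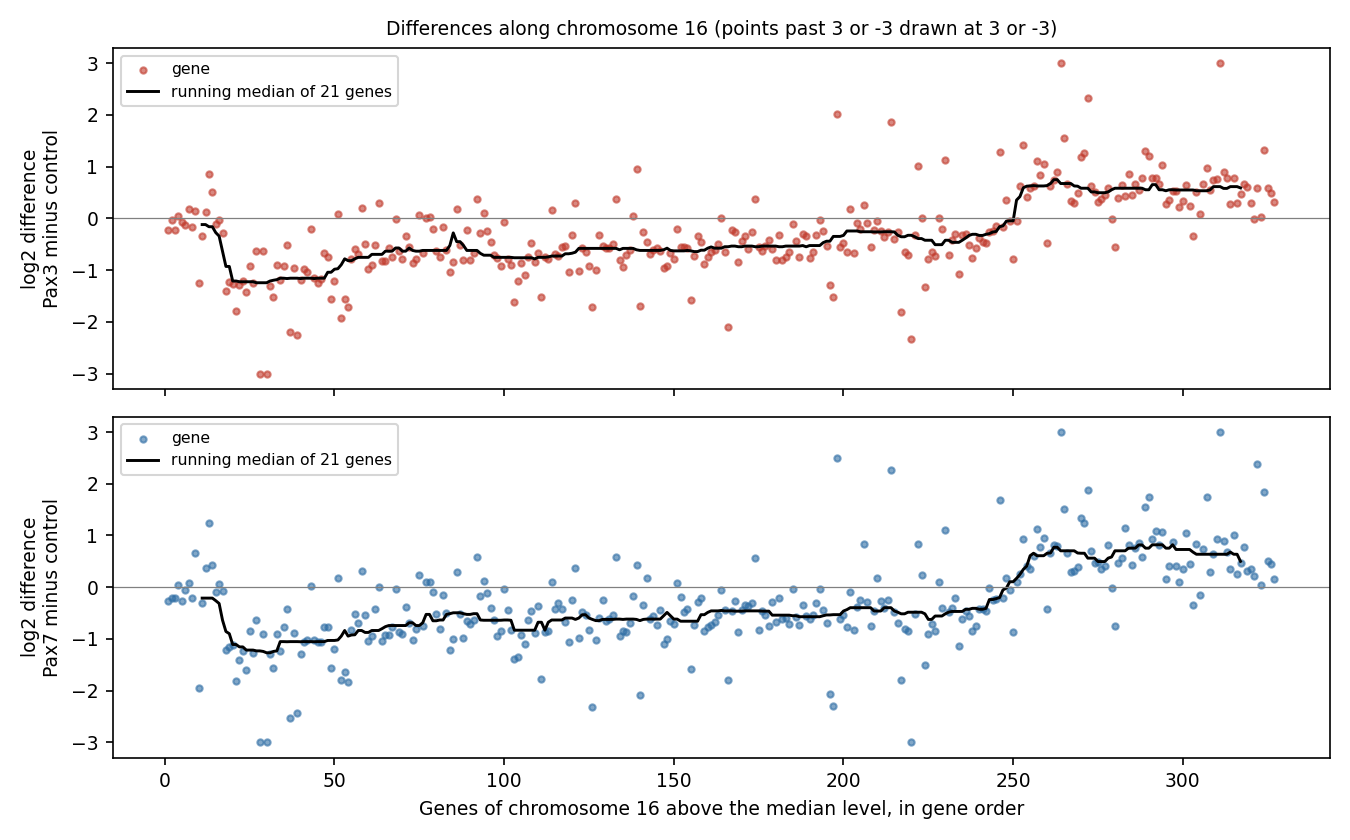
Log2 difference from control of 327 genes of chromosome 16 above the median level, in gene order, for Pax3 (top) and Pax7 arrays (bottom). Points are genes, drawn at the edge past 3 log2 units. The black line is the running median of 21 genes, which exists from Tfap4 to Ets2. It drops further after the first 14 genes, stays below 0 over 231 genes and is above 0 from Crybg3 to Ets2.

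Several of the named genes lie in these stretches. Rbfox1, a splicing regulator of muscle and neurons, is in the lower stretch and stood at 9.68, 9.83 and 9.90 in control and 5.56, 5.56 and 5.61 in Pax3 arrays (-4.22 ± 0.0591, adjusted p = 3.64e-12). Abat, the enzyme that degrades the transmitter GABA, is there too, at 9.71, 9.71 and 9.79 in control and 6.51, 6.49 and 6.60 in Pax3 arrays (-3.20 ± 0.0541, adjusted p = 1.42e-11). Both fell further than the running median around them, which was -1.24 at each gene and -0.58 at Psmd2, further along the stretch. Boc, a receptor of the promyogenic cell surface complex, lies in the lower stretch but rose, from 8.10, 8.16 and 8.35 to 10.08, 10.09 and 10.02 (1.86 ± 0.0639, adjusted p = 2.1e-09). In the higher stretch are Sim2, the virus receptor and junction protein Cxadr (3.04), the aggrecan-cleaving protease Adamts5 (2.34), the carbonyl reductase Cbr3 (0.97) and the transcriptional cofactor Vgll3 (0.85). Without the genes of chromosome 16, an alternative added after the data were seen, 7413 genes passed, 3784 higher and 3629 lower.

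The largest rises after the first ranks included surface enzymes, receptors and transporters. Mme, the membrane peptidase neprilysin, stood at 6.49, 6.70 and 6.64 in control and 10.32, 10.25 and 10.19 in Pax3 arrays, 12.5-fold higher (3.64 ± 0.0609, adjusted p = 1.34e-11). Slc6a15, a transporter of branched-chain amino acids, was 4.47, 4.48 and 4.36 in control and 8.03, 8.06 and 7.78 in Pax3 arrays (3.52 ± 0.0717, adjusted p = 4.94e-11). Egfr, the receptor for epidermal growth factor, was 6.85, 6.97 and 6.98 in control and 10.05, 10.14 and 10.05 in Pax3 arrays (3.15 ± 0.0517, adjusted p = 1.24e-11). For each of these genes the groups lay more than 3 log2 units apart. Eps8, a substrate of that receptor which binds actin, was 3.14 ± 0.101 higher (8.82-fold). The sodium channel subunit Scn3b was 3.05 higher, the phospholipid flippase Atp8a1 3.17, the G protein-coupled receptor P2ry10b 3.63, and cadherin 6, Cdh6, was 3.26 ± 0.0845 higher.

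Genes that act inside the cell rose as well. Rbpms, an RNA-binding protein of smooth and heart muscle, read 6.01, 6.0 and 5.98 in control and 9.30, 9.27 and 9.25 in Pax3 arrays (3.28 ± 0.0375, adjusted p = 7.1e-13). Pcbd1, an enzyme of biopterin recycling, rose 10.9-fold (3.44 ± 0.0737), and the calcium-dependent phosphodiesterase Pde1a rose 9.42-fold (3.24 ± 0.0738). Srgap1, which acts downstream of the guidance receptor Robo, rose by 3.23 ± 0.07, and Prex2, an activator of Rac, by 3.1 ± 0.112. The middle neurofilament chain Nefm stood at 5.11, 5.15 and 5.30 in control and 9.01, 9.09 and 8.88 in Pax3 arrays (3.80 ± 0.0693). Mcpt8, a protease known from basophils, rose by 3.07 ± 0.0826, from 5.69, 5.74 and 5.91 to 9.02, 8.87 and 8.68. Wdfy4 was 3.24 higher by its brightest probe set, but its lowest probe set differed by only 0.20 and did not pass (adjusted p = 0.100).

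Among the largest falls were signalling proteins of the membrane and their ligands. Camk1g, a membrane-bound calmodulin kinase, stood at 9.77, 9.96 and 9.78 in control and 6.06, 6.02 and 6.07 in Pax3 arrays, 13.8-fold lower (-3.78 ± 0.0691, adjusted p = 2e-11). Adcyap1r1, the receptor for the peptide PACAP, was 9.82, 9.62 and 9.91 in control and 6.18, 6.10 and 6.32 in Pax3 arrays (-3.58 ± 0.0859, adjusted p = 1.36e-10). Ano1, a calcium-activated chloride channel, was 9.45, 9.37 and 9.63 in control and 5.92, 5.87 and 6.07 in Pax3 arrays (-3.53 ± 0.0725, adjusted p = 5.04e-11). None of the 3 overlapped between groups, which the rule for naming the largest falls required. Angiopoietin 1, Angpt1, a ligand of the endothelial receptor Tek, read 7.13, 7.10 and 6.93 in control and 3.55, 3.63 and 3.80 in Pax3 arrays (-3.39 ± 0.0729). The adhesion receptor Adgrl3 was 10.4-fold lower (-3.38 ± 0.0889), the gap junction protein Gja5 8.44-fold (-3.08 ± 0.0712), cadherin 18, Cdh18, 8.34-fold (-3.06 ± 0.0995) and the matrix protein Svep1 7.36-fold (-2.88 ± 0.0635).

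Other large falls were in binding proteins and enzymes. Igfbp5, which binds insulin-like growth factors, stood at 12.22, 12.28 and 12.23 in control and 9.19, 9.23 and 9.33 in Pax3 arrays (-2.99 ± 0.0465, adjusted p = 8.29e-12). Follistatin, Fst, an antagonist of activin and myostatin, was 10.74, 10.97 and 10.88 in control and 7.75, 7.48 and 7.66 in Pax3 arrays (-3.24 ± 0.0776, adjusted p = 1.36e-10). Cavin2, a coat protein of caveolae, read 9.75, 9.56 and 9.48 in control and 6.44, 6.64 and 6.47 in Pax3 arrays (-3.08 ± 0.0728, adjusted p = 1.21e-10). In each, every Pax3 array was below every control array, again as the naming rule required. Coq6, an enzyme of ubiquinone synthesis, was 9.16-fold lower (-3.20 ± 0.0759) and the vesicle protein Syt14 7.37-fold lower (-2.88 ± 0.0491). The fatty acid binding protein Fabp7 varied more than these, at 6.64, 6.55 and 6.14 in Pax3 arrays against 9.37, 9.79 and 9.78 in control (-3.20 ± 0.133).

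**Figure D3:**
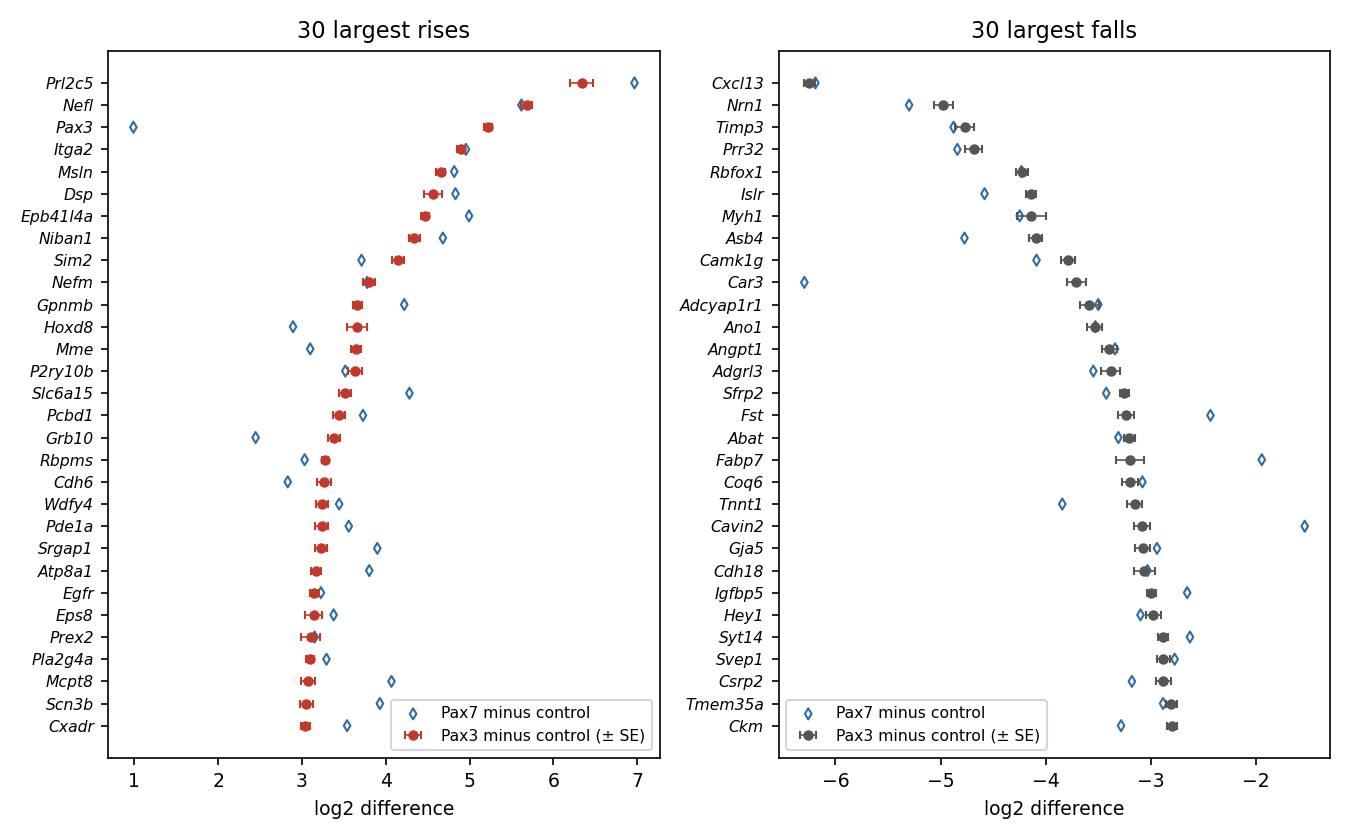
The 30 largest rises (left) and 30 largest falls (right) by log2 difference of Pax3 from control (filled circles, ± SE), with the difference of the Pax7 mean from the same control mean (open diamonds). Sex-linked markers and unnamed transcripts are left out; Car3, Fabp7 and Cavin2 show the widest gaps between circle and diamond among the falls.

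Genes of the synapse, surface and membrane complexes of muscle moved in both directions. Of 19 measured neuromuscular junction genes 5 were higher, 9 lower and 5 not past (73.7% past beside 39.6% of all genes, median -0.08). The receptor kinases Erbb3 (-0.77) and Musk (-0.71), which organises acetylcholine receptors, and its activator Dok7 (-0.54) fell. The acetylcholine receptor subunit Chrnd rose (0.69), as did Erbb2, Etv5, Agrn and Utrn by 0.26 to 0.39. Of 32 genes of myoblast fusion and adhesion 9 were higher, 13 lower and 10 not past (68.75% past). The fusogen Mymx stood at 8.23, 8.39 and 8.18 in control and 6.97, 6.73 and 6.98 in Pax3 arrays (-1.37 ± 0.0809), and its partner Mymk at 11.54, 11.72 and 11.60 and 10.92, 10.93 and 10.98 (-0.68 ± 0.0818). Tmem182 (-1.54) and the membrane repair protein Trim72 (-1.18) fell as well. Of 22 genes of the dystrophin complex 6 were higher and 9 lower (68.2% past). The laminin chains Lama2 (0.93) and Lamc1 (0.74) and dystrobrevin Dtnb (0.59) rose, and the syntrophin Sntb1 (-0.65) fell.

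Of 27 muscle energy enzymes 15 were lower, 5 higher and 7 not past (74.1% past beside 39.6% of all genes), with a median of -0.20. Carbonic anhydrase Car3 stood at 12.71, 12.78 and 12.77 in control and 9.09, 9.03 and 9.03 in Pax3 arrays (-3.71 ± 0.0913, adjusted p = 1.66e-10). Creatine kinase Ckm (-2.80), phosphoglycerate mutase Pgam2 (-1.99) and Pdk4 (-1.87), which restrains pyruvate oxidation, also fell. The 5 that rose were Ppargc1a (1.06), Adssl1 (0.84), Cox6a2 (0.80), Ldha (0.19) and Aldoa (0.15). Of 24 splicing and RNA regulators of muscle 15 were lower, 3 higher and 6 not past (75% past, median -0.27). Besides Rbfox1, the muscleblind protein Mbnl3 (-1.41), Igf2bp1 (-1.02) and Rbm38 (-0.65) fell, and Ptbp1, a repressor of muscle and neural exons, rose by 0.39, as did Lin28b (0.37) and Mbnl2 (0.16).

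The list with the largest share of lower members held ubiquitin ligase adaptors. Of 27 muscle ubiquitin ligases and Asb adaptors 18 were lower, 1 higher and 8 not past (70.4% past beside 39.6% of all genes). Their median was -0.32 beside 0.0157 over all genes. Asb2, which targets filamins, stood at 8.76, 8.88 and 8.87 in control and 6.33, 6.53 and 6.67 in Pax3 arrays (-2.33 ± 0.0794, adjusted p = 2e-09). Klhl41, a sarcomere-associated Kelch protein, read 10.39, 10.52 and 10.39 in control and 8.03 on all 3 Pax3 arrays (-2.40 ± 0.0924, adjusted p = 4.99e-09). Klhl31 was 10.03, 10.05 and 10.11 in control and 7.77, 7.86 and 7.72 in Pax3 arrays (-2.28 ± 0.0481), and Asb4 differed by -4.10. In these 4 genes no Pax3 array reached a control value, and the groups did not overlap in 8859 of all 19661 genes. The 1 higher gene, Asb10 (0.20), did not pass without control replicate 1, control replicate 2 or Pax3 replicate 2.

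**Figure D4:**
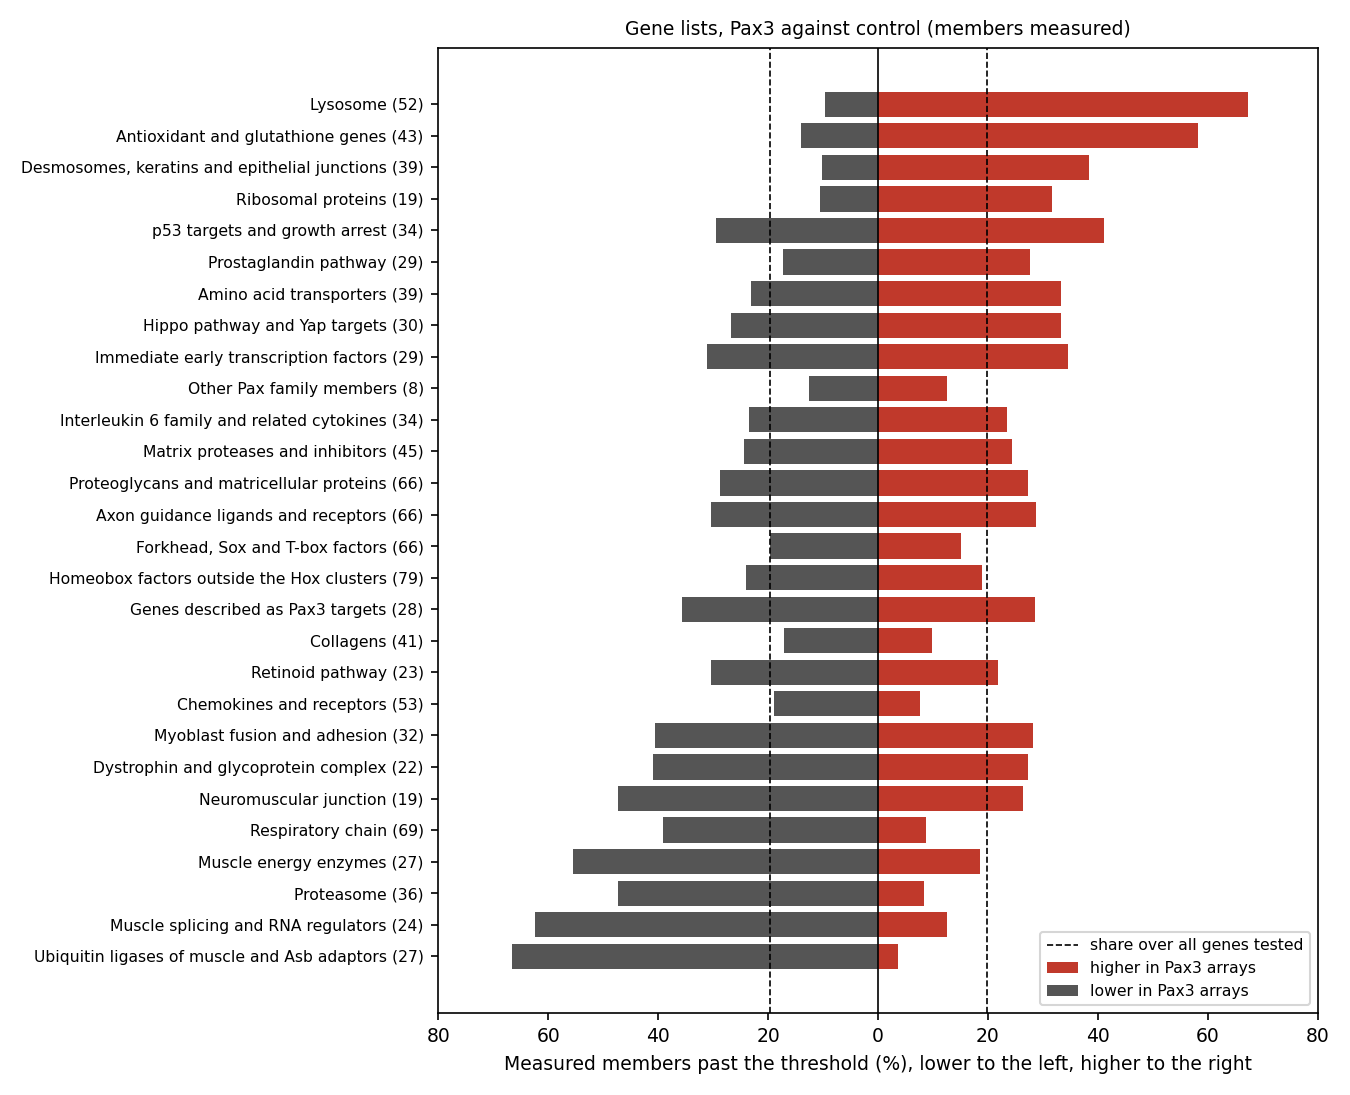
Share of the measured members of 28 gene lists that passed the threshold, higher in Pax3 arrays to the right and lower to the left, with the number of members measured in brackets. Dashed lines mark the shares over all genes, 19.8% higher and 19.7% lower; lysosomal genes reach furthest right and ubiquitin ligase adaptors furthest left.

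Lysosomal genes were the list with the largest share of higher members. Of 52 measured 35 were higher, 5 lower and 12 not past (76.9% past beside 39.6% of all genes), with a median of 0.27 log2 units. Only 3 of the 52 were below the array median on all 9 arrays, and genes of like level were not compared. Gpnmb, a glycoprotein of lysosomes and melanosomes, stood at 7.78, 7.73 and 7.93 in control and 11.50, 11.47 and 11.45 in Pax3 arrays (3.66 ± 0.055, adjusted p = 6.71e-12). Cathepsin C, Ctsc, an activator of granule proteases, was 4.92, 4.74 and 4.49 in control and 7.16, 7.22 and 6.80 in Pax3 arrays (2.34 ± 0.119, adjusted p = 4.36e-08). Beta-mannosidase Manba was 7.25, 7.12 and 7.08 in control and 8.82, 8.87 and 8.79 in Pax3 arrays (1.68 ± 0.0542, adjusted p = 1.35e-09). The groups stood apart in all 3. The lysosomal genes shown by sequence, Naglu (7.18, 7.20 and 7.19 against 8.52, 8.66 and 8.70) and Gla (8.38, 8.39 and 8.30 against 9.81, 9.70 and 9.68), rose by 1.44 and 1.37.

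Of the 12 lysosomal genes with TCACGTG in the window 8 were higher and 1 lower (median 0.43), and of the 33 without it 25 were higher and 2 lower (median 0.28). Tfe3, one of the factors of that motif, was 9.46, 9.44 and 9.60 in control and 10.34, 10.32 and 10.30 in Pax3 arrays (0.82 ± 0.0494). Mitf, another, was 0.28 higher by its brightest probe set and -0.01 by its lowest, so its direction is not settled. The 5 lower genes were Ctsh (-0.76), Cln3 (-0.27), Ctsk (-0.24), Atp6v1h (-0.19) and Laptm4a (-0.13). They numbered 3 without control replicate 1 or control replicate 2 and 8 without Pax3 replicate 2.

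Antioxidant and glutathione genes followed in the share of higher members. Of 43 measured 25 were higher, 6 lower and 12 not past (72.1% past beside 39.6% of all genes, median 0.23). Gstm2, a glutathione transferase, stood at 8.36, 8.39 and 8.55 in control and 10.22, 10.01 and 10.20 in Pax3 arrays (1.71 ± 0.0674, adjusted p = 5.97e-09). Nqo1, a quinone reductase, was 8.99, 9.15 and 9.20 in control and 10.36, 10.47 and 10.40 in Pax3 arrays (1.30 ± 0.0626, adjusted p = 2.94e-08). Glutathione peroxidase Gpx3 (1.42) and the transferase Gsta4 (1.08) rose too, and Gpx7, a peroxidase of the endoplasmic reticulum, fell (-0.74). Nfe2l2, a factor that activates many of these genes, rose from 11.09, 11.13 and 11.08 to 11.51, 11.54 and 11.49 (0.41 ± 0.04). Its motif TGACNNNGC, which can overlap TGACTCA, was present for 12.5% of all genes. It was present for 14.3% of those at least 1 log2 unit higher and for 12% of those at least 1 log2 unit lower. Of 37 members with a window 9 held it (24.3%), 5 higher and 3 lower. Of the 28 members without it 18 were higher and 2 lower.

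Transport and lipid mediator genes moved in both directions. Of 39 amino acid transporters 13 were higher and 9 lower (56.4% past beside 39.6% of all genes, median 0.04). Slc1a5, the glutamine carrier, stood at 7.82, 7.75 and 7.72 in control and 10.55, 10.66 and 10.70 in Pax3 arrays (2.87 ± 0.0495, adjusted p = 1.49e-11), and the arginine carrier Slc7a3 (2.08), Slc38a7 (1.22) and Slc7a7 (0.88) rose. Of 29 prostaglandin genes 8 were higher and 5 lower (44.8% past). Pla2g4a, the phospholipase that frees arachidonic acid, was 8.61, 8.49 and 8.59 in control and 11.69, 11.68 and 11.62 in Pax3 arrays (3.10 ± 0.0477, adjusted p = 8.05e-12). Ptgr1, a prostaglandin reductase, rose by 1.18. The lipoxygenase Alox5 fell by 0.67, and Ptgir, Ptgis, Ptger4 and Ptgds fell by 0.21 to 0.46.

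Mitochondrial and proteasome genes were lower more often than higher, by small amounts. Of 69 respiratory chain genes 27 were lower, 6 higher and 36 not past (47.8% past beside 39.6% of all genes, median -0.10). Only 1 of the 69 was below the array median on all 9 arrays, and genes of like level were not compared. Cox7a1, a muscle form of a cytochrome oxidase subunit, stood at 9.13, 9.35 and 9.25 in control and 8.0, 7.95 and 8.0 in Pax3 arrays (-1.26 ± 0.071), whereas Cox6a2, another muscle form, rose from 7.52, 7.53 and 7.61 to 8.38, 8.23 and 8.45 (0.80 ± 0.0659). Uqcrh (-0.57) and the muscle form Cox8b (-0.55) fell. The higher members numbered 3 without control replicate 1 or control replicate 2. Of 36 proteasome genes 17 were lower, 3 higher and 16 not past (55.6% past, median -0.13). Here too only 1 was below the array median on all 9 arrays. Psma7 (-0.44), Psmc2 (-0.43) and Psmc5 (-0.43) were among the lower. Psmd2 (-0.58) is in the lower stretch of chromosome 16. The 3 higher genes were the immunoproteasome subunits Psmb9 (0.38) and Psmb8 (0.24) and the activator subunit Psme1 (0.13). Of 65 ribosomal protein genes listed 19 were measured, 6 higher, 2 lower and 11 not past (42.1% past), from Rpl34 (1.06) to Rpl12 (-0.40). Rps21 (-0.12) was the other lower gene. The lower count was 1 without control replicate 1, control replicate 2 or Pax3 replicate 1, also 1 in a fit of the 6 control and Pax3 arrays alone, and 4 with the arrays centred on their medians or without the lowest 50% of genes.

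**Figure D5:**
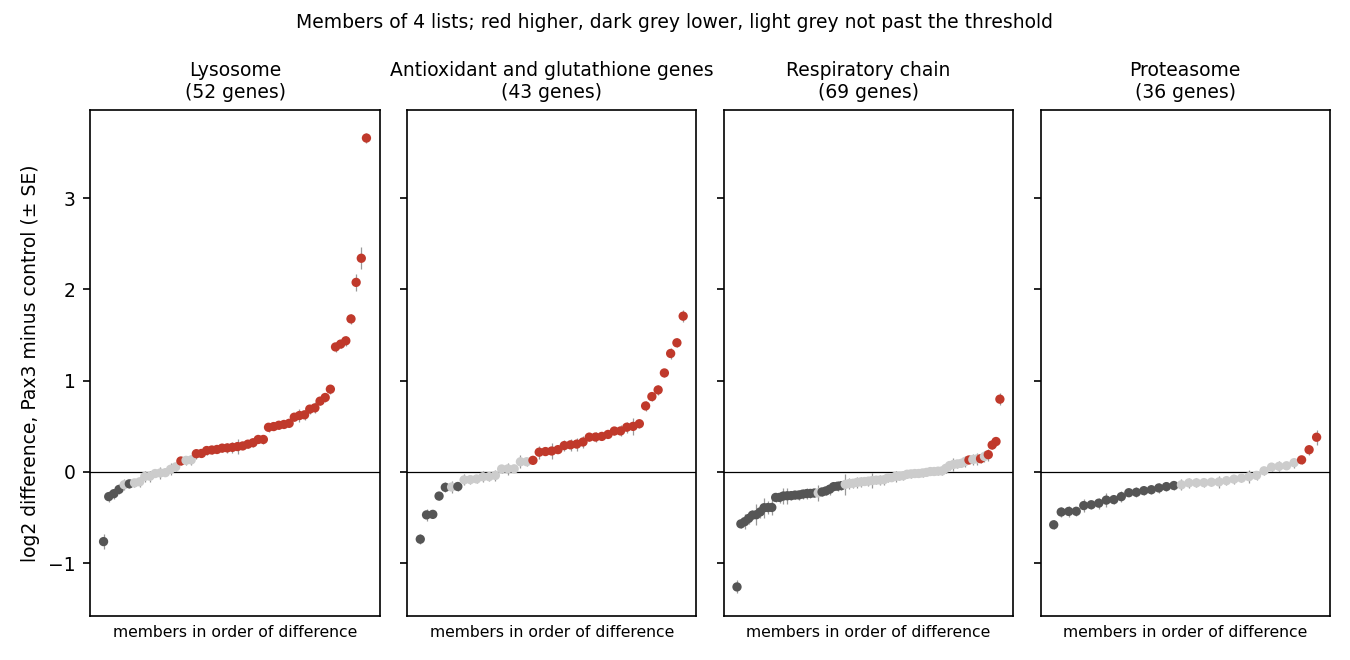
Log2 difference of Pax3 from control (± SE) for each measured member of 4 lists, sorted by difference. Red points are higher, dark grey lower and light grey not past the threshold: 35 of 52 lysosomal and 25 of 43 antioxidant genes are red, 27 of 69 respiratory chain and 17 of 36 proteasome genes dark grey.

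Matrix genes were read against the 39.6% of all genes that passed. Of 66 proteoglycans and matricellular proteins 18 were higher, 19 lower and 29 not past (56.1% past, median 0.01). Among these, 7 of the higher and 8 of the lower genes differed by at least 1 log2 unit. Efemp1 (2.52) and the fibulin Fbln2 (2.39) rose, and Islr (-4.14), biglycan Bgn (-2.61) and periostin Postn (-2.58) fell. Postn stood at 9.13, 9.17 and 8.99 in control and 6.67, 6.61 and 6.26 in Pax3 arrays. Of 45 matrix proteases and inhibitors 11 were higher, 11 lower and 23 not past (48.9% past). The lower count was 7 without Pax3 replicate 1. Timp3, an inhibitor of metalloproteinases, was 10.23, 10.27 and 10.35 in control and 5.48, 5.56 and 5.50 in Pax3 arrays (-4.77 ± 0.0936), while Adamts5, the urokinase receptor Plaur (2.16) and Mmp28 (2.02) rose. Of 41 collagens 30 did not pass, and the 26.8% that did are fewer than over all genes. Of the 41, 19 were below the array median on all 9 arrays, and genes of like level were not compared. The 4 higher were Col19a1 (1.62), Col8a1 (1.28), Col13a1 (0.31) and Col18a1 (0.28), and 7 were lower, with Col12a1 (-1.11) and Col4a2 (-0.90) the furthest.

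Epithelial junction genes rose in part. Of 39 genes of desmosomes, keratins and epithelial junctions 15 were higher, 4 lower and 20 not past. Those past were 48.7%, beside 39.6% of all genes, and the median was 0.05. Desmoplakin Dsp, which ties keratins to desmosomes, stood at 5.44, 5.77 and 5.99 in control and 10.29, 10.34 and 10.27 in Pax3 arrays (4.57 ± 0.107). Plakoglobin Jup was 8.68, 8.75 and 8.90 in control and 9.89, 9.99 and 9.96 in Pax3 arrays (1.17 ± 0.0611). The lower genes were Cldn1 (-1.17), Grhl3 (-0.81), Pkp2 (-0.63) and Grhl1 (-0.18). Cldn1 and Pkp2 are on chromosome 16, where Cxadr also lies.

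Ligands and receptors of axon guidance and cytokine signalling were mixed. Of 66 guidance genes 19 were higher and 20 lower (59.1% past beside 39.6% of all genes, median 0.03). The semaphorin Sema5a stood at 6.19, 6.17 and 6.34 in control and 8.94, 8.89 and 8.69 in Pax3 arrays (2.61 ± 0.0689), while Sema3d (-2.13), the receptor Epha7 (-2.27) and the semaphorin receptor Plxna2 (-1.91) fell. Of 34 genes of the interleukin 6 family and related cytokines 8 were higher and 8 lower (47.1% past). The alarmin Il33 (2.50) and the receptors Il13ra1 (2.26) and Il17rd (1.84) rose, and the receptor of leukaemia inhibitory factor, Lifr, fell (-1.77). Of 53 chemokine genes 39 did not pass, 10 were lower and 4 higher, so that 26.4% passed, fewer than the 39.6% of all genes. Most are dim: 42 of the 53 were below the array median on all 9 arrays. The share was not compared with genes of like level. Cxcl13, which attracts B cells, stood at 10.54, 10.64 and 10.49 in control and 4.27, 4.28 and 4.37 in Pax3 arrays (-6.25 ± 0.0529), and Ccl17 (-0.97) and Ccl2 (-0.88) fell. The higher genes were Ccl5 (0.66), Cxcl10 (0.27), Ccl7 (0.25) and Ccl20 (0.19), and 2 passed without control replicate 1, control replicate 3 or Pax3 replicate 3.

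Among 28 genes described in the literature as Pax3 targets, 8 were higher, 10 lower and 10 not past, with a median of -0.02. Those past were 64.3% of the list, beside 39.6% of all genes. The cadherin Cdh11 stood at 7.49, 7.50 and 7.66 in control and 10.18, 10.18 and 10.08 in Pax3 arrays (2.60 ± 0.0531, adjusted p = 4.99e-11), and Myf5 and the adhesion molecule Nrcam (1.51) also rose by at least 1 log2 unit. Dmrt2, a somite regulator upstream of Myf5, was 11.19, 11.13 and 10.96 in control and 8.55, 8.75 and 8.45 in Pax3 arrays (-2.51 ± 0.078, adjusted p = 1.02e-09). The Notch ligand Dll1 was 10.31, 10.35 and 10.40 in control and 8.09, 8.23 and 8.21 in Pax3 arrays (-2.18 ± 0.0549). The receptor Met, which migrating limb muscle precursors need, had a mean level of 10.54 in control and 9.99 in Pax3 arrays, without overlap (-0.54 ± 0.0395). Of 8 other Pax genes, Pax7 was lower and Pax9 higher (0.27, adjusted p = 0.0171), and Pax9 did not pass without control replicate 2 or 3 or without Pax3 replicate 1 or 3 (adjusted p = 0.0557 to 0.0697). A second Pax gene was lower without Pax3 replicate 3.

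Homeobox, forkhead, Sox and T-box factors passed at shares near those of all genes (39.6%). Of 79 homeobox factors outside the Hox clusters 15 were higher, 19 lower and 45 not past (43.0% past), with Meis1 (1.26) up and Pknox2 (-1.77), Dlx1 (-1.33) and Meis2 (-1.14) down. Of 66 forkhead, Sox and T-box factors 10 were higher, 13 lower and 43 not past (34.8% past). The T-box factor Tbx20 stood at 7.47, 7.38 and 7.54 in control and 5.07, 4.94 and 5.08 in Pax3 arrays (-2.43 ± 0.071), Sox8 (-1.86) and Tbx15 (-1.81) fell and Foxf2 (1.64) rose. Of 29 immediate early factors 10 were higher, 9 lower and 10 not past (65.5% past). The AP-1 subunits parted: Jun was 11.60, 11.58 and 11.60 in control and 10.28, 10.30 and 10.23 in Pax3 arrays (-1.32 ± 0.0399), Junb fell (-0.92), and Fosl1 rose from 9.37, 9.31 and 9.47 to 10.48, 10.49 and 10.48 (1.10 ± 0.0471). TGACTCA, the sequence AP-1 binds, was in the windows of 4.76% of all genes, 7.16% of those at least 1 log2 unit higher and 6.38% of those at least 1 log2 unit lower.

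Of 34 genes of p53 and growth arrest 14 were higher and 10 lower (70.6% past beside 39.6% of all genes, median 0.06). Cdkn2a (1.42), which encodes inhibitors of the cell cycle, and Trp53i11 (2.21) rose. The antiproliferative gene Btg2 (-1.59) and the death receptor Fas (-1.10) fell. Of 30 Hippo pathway genes 10 were higher and 8 lower (60% past), with Amotl1 (1.19) up and the protocadherin Dchs1 (-1.84) down. Of 23 retinoid genes 7 were lower and 5 higher (52.2% past). The lower were led by the receptor Rxrg (-1.13) and the retinol carrier Rbp4 (-0.85). The higher were Rarg, Crabp2, Rarres1, Dhrs3 and Rarb, by 0.14 to 0.50.

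Markers of cell types were read beside these groups, and in bulk RNA fewer cells of a type and less RNA per cell cannot be told apart. Of 10 myoblast markers 70% passed, beside 39.6% of all genes, and 1 was below the array median on all 9 arrays. Their mean level was 10.6 to 10.7 on control and 10.5 on Pax3 arrays, with Myf5 and Vcam1 higher and Pax7, Cdh15, Ncam1, Des and Itga7 lower. Des, muscle desmin, stood at 12.15, 12.17 and 12.08 in control and 11.61, 11.59 and 11.64 in Pax3 arrays. Of 18 macrophage markers 15 were below the array median on all arrays, and 3 were higher (16.7% past): Cd53 (2.51), Laptm5 (2.08) and Cd68 (1.36). The list's mean level was 5.12 to 5.20 on control and 5.50 to 5.56 on Pax3 arrays. The defining markers Ptprc (4.73, 4.63 and 4.73 against 4.71, 4.78 and 4.73), Csf1r, Adgre1, Aif1 and Tyrobp did not pass, with differences of -0.04 to 0.06. Without Pax3 replicate 3 a macrophage marker was lower.

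Markers of other cells were mostly low. Of 19 fibroblast markers 13 were below the median and 47.4% passed, beside 39.6% of all genes. The mean level was 6.31 to 6.36 on control and 6.23 to 6.33 on Pax3 arrays. Gsn (0.81), Pdgfra (0.42) and Mfap5 (0.13) were higher, and S100a4 (-0.87), Cd34 (-0.65) and Pdgfrb (-0.62) were among 6 lower. Of 15 endothelial markers 14 were below the median and 13.3% passed. Their mean level was 5.59 to 5.63 on control and 5.66 to 5.79 on Pax3 arrays. Egfl7 (0.63) and Tek (0.38) were higher, and Pecam1, Cdh5 and Kdr did not pass. Of 12 Schwann and neural crest markers 9 were below the median (5.81 to 5.82 against 5.74 to 5.90) and 16.7% passed. Erbb3 was lower, Sox10 did not pass, and Mitf was higher by its brightest probe set but not by its lowest (-0.01). Mitf did not pass without control replicate 2, Pax3 replicate 1 or Pax3 replicate 2, nor in a fit of the 6 control and Pax3 arrays alone. Of 15 mesothelial markers 10 were below the median (5.75 to 5.87 against 6.13 to 6.25) and 33.3% passed. Mesothelin Msln (4.66), Krt18, Krt19 and Krt8 were higher and Upk1b lower (-0.33), while Upk3b and Wt1 differed by 0.02 each and did not pass. Krt19 (0.26) did not pass without control replicate 1 or 2 or without Pax3 replicate 1 or 2.

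Pax3 and Pax7 arrays were compared to see which of the levels named above differed between the factors, a contrast in which 16.9% of all genes passed (3316 genes). Car3, 9.09, 9.03 and 9.03 in Pax3 arrays, was 6.70, 6.42 and 6.25 in Pax7 arrays, so that Pax3 arrays lay 2.59 ± 0.0913 higher (adjusted p = 2.53e-08). Tmem182 was 1.22 higher in Pax3 than in Pax7 arrays, Fbln2 1.2, Mymk 1.05, Postn 1.00 and Klhl41 0.98. Cavin2 was lower in Pax3 arrays than in Pax7 arrays, which read 8.06, 8.06 and 8.07 (-1.55 ± 0.0728, adjusted p = 1.9e-07), and so was Fabp7 at 7.69, 7.69 and 7.73 in Pax7 arrays (-1.26 ± 0.133, adjusted p = 6.78e-05). Of the epithelial genes, Krt18 differed by -1.79 and Jup by -1.30, while Dsp (-0.27, adjusted p = 0.131) and Msln (-0.16, adjusted p = 0.0712) did not pass. Of the lysosomal genes, Gpnmb differed by -0.56 and Manba by -0.39, Laptm5 was 0.59 higher in Pax3 arrays (adjusted p = 0.000867), and Ctsc (-0.34, adjusted p = 0.0797) did not pass. Cd53 differed by -1.29 and Mcpt8 by -0.99. No difference passed for Rbfox1 (0.01), Nefm (0.03), Nabp1 (0.02) or Slc1a5 (0.06), whose standard errors were 0.0495 to 0.0726.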

How the data were processed

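Total RNA of 9 samples, 3 per group, was measured on Affymetrix mouse gene arrays. The values the authors deposited are RMA log2 intensities, made in R 2.10.0 per the submitters' processing notes, for 25668 probe sets. RMA subtracts background, sets the arrays to 1 distribution and summarises probes, which compresses differences of dim genes. Between any pair of arrays 891 to 1714 values were identical, as for Grb10 on Pax7 arrays, and why they tie was not tested. The sources used here do not give the build, the annotation version or any filter. Of the probe sets, 20777 had 1 gene symbol, 232 several and 4659 none in the platform annotation, and 20696 matched gene IDs of a RefSeq table.

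Group means were fitted to the deposited values of all 9 arrays with limma 3.58.1 in R 4.3.3 (residual df 6, prior df 4.37) and checked on simulated data. Samples were grouped by their titles. Gene lists were written from general knowledge and described by counts and medians, without a set test. Members and lists were chosen with earlier results of these data known. Named were the 6 genes Pax3, Myf5, Hoxd8, Grb10, Sim2 and Pax7, the 30 largest rises and 30 largest falls without overlap, and up to 4 members of each list with the largest differences past the threshold. Chromosome 16 stretch ends, promoter genes, Myod1, Mymk, Nrcam, Met, Fbln2, Naglu, Gla, Tfe3, Nfe2l2, markers that did not pass and members named to complete a count of 5 or fewer were named after their values were seen. Sex-linked markers and clone, predicted, receptor and small RNA symbols were not named as results. Chromosome order came from the RefSeq table, and no coordinates are given beyond the promoter table's own build. Alternatives covered the arrays fitted, filter, prior, scaling, probe set choice, sex chromosomes, replicate block, a minimum fold change and each array left out.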

Additional observations from a re-analysis of the deposited data

Results flagged for a closer look

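Some probe sets outside the genes compared also passed. Of 4891 probe sets without exactly 1 gene symbol, 839 passed the threshold between Pax3 and control arrays in a limma fit over all probe sets, 433 higher and 406 lower. They are 17.2% of these probe sets, fewer than the 34.2% of all probe sets that passed in that fit. What they measure was not tested. With 3 arrays per group no single array was tested as an outlier.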

How the results depend on the processing

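The 172 named genes were refitted in up to 17 other settings. In 2849 of 2872 such fits the direction and the side of the threshold stayed, in 22 the call was lost and in 1, Mitf with its lowest probe set, the sign turned (-0.00924, adjusted p = 0.929). Most named genes were chosen for large differences in these same arrays, so these counts do not measure how stable other genes are. Pax9, Krt19 and Mitf lost their calls when single arrays were left out. With limma's treat test for a fold change above 1.2, a narrower question, 3264 genes passed, 1667 higher and 1597 lower, and 784 between Pax3 and Pax7 arrays. In that test 20 lysosomal and 13 antioxidant genes were higher, and 5 respiratory chain, 3 proteasome, 11 ubiquitin ligase and 9 splicing genes lower. Leaving out each array gave 6903 to 7753 genes past the threshold. Centring the arrays on their medians moved the median of all genes from 0.0157 to -0.0131 and left 44.6% of the genes that passed higher, against 50.2%, and 3 respiratory chain genes higher. Same-numbered control and Pax3 arrays deviated together weakly (r = 0.0695, 0.143 and 0.218 across genes, which are not independent). Differently numbered ones had r from -0.196 to 0.123. The numbers were not taken as pairs in the main fit, and whether they mark pairs was not tested. With the replicate block 7902 genes passed, and 1 ribosomal protein gene was lower instead of 2. The alternative without chromosome 16 was chosen after seeing the data. The number of arrays, not a depth, limits small differences, and dim genes near the array floor have compressed values.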

Other observations

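A gene's other probe sets gave a further reading. Of 1116 second probe sets, 306 passed together with the tested probe set of the same gene, 301 with the same sign and 5 with the opposite sign between Pax3 and control arrays.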
